A study of Rattus norvegicus with 16 samples.

Results

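Tnf encodes tumor necrosis factor, a cytokine released by activated macrophages and other cells, and Tifa encodes an adaptor protein that links sensing of a bacterial sugar to the TRAF6 ubiquitin ligase. These 2 genes were followed in the distal colon of rats together with 8 genes of NF-kappaB output and feedback: Nfkbia, Nfkb1, Nfkb2, Relb, Tnfaip3, Tnfaip2, Birc3 and Icam1. Members were found as the array probes whose RefSeq transcript accession belongs to a listed symbol. By this rule 7 of the 10 genes had a probe, 1 each, among 15159 gene symbols matched on the array. Nfkb1, Relb and Tnfaip3 were not analysed here. Tnf was selected on its difference between Pirc and wildtype rats over both treatments, and Tifa on the difference between the DSS effects of the 2 genotypes, both in these arrays. Values of Tnf and Tifa in those contrasts and in their parts are therefore given as descriptions, with no test, and nothing is read from their part in the counts of those contrasts. The other genes were added for their known roles, with earlier results of these arrays known.

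The arrays measured RNA from tissue labelled as normal distal colon of 16 male (ACIxF344)F1 hybrid rats at 97 days of age, 4 rats in each of 4 groups. Pirc/+ rats are heterozygous for a truncating mutation of the tumor suppressor gene Apc in all cells and develop colonic adenomas, and wildtype rats carry no mutant Apc allele. In each genotype 1 group went untreated and the other received the epithelial irritant dextran sodium sulfate (DSS) at 4% in its water at ages of 40 to 47 and 54 to 61 days. Sampling thus came 36 days after the last DSS. Of 11 colon epithelium markers listed, 9 were measured, and on each of the 16 arrays all 9 were well above background. A level below is the log2 of a probe's signal relative to the 75th percentile of signals on its array, so a difference of 1 is a factor of 2. A difference passed the test at an adjusted p of 0.05 or less in limma, adjusted over all 30367 probes. On every one of the 16 arrays the 7 member probes were well above background. In pieces of bulk tissue, fewer cells of a type and less RNA per cell cannot be told apart. The arrays lay on 2 slides, each with 2 rats of every group, and each group took a single array column, so that column and group cannot be told apart. The labels give each rat its own number and do not say which rats shared a litter or cage.

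NF-kappaB is a family of transcription factors held inactive in the cytoplasm by IkB proteins. Signals from the TNF receptor, from Toll-like receptors or from Tifa converge on the IKK kinases, which mark the IkB protein for destruction and free NF-kappaB to enter the nucleus. Among its targets are genes for its own inhibitors, such as the IkB protein of Nfkbia and the ubiquitin-editing enzyme of Tnfaip3, and genes for adhesion molecules such as Icam1, so that the pathway both spreads inflammation and limits itself. In the colon the pathway is known from the response of epithelium and immune cells to bacteria that cross an injured barrier.

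Promoters of 8 of the 10 genes were found in the RefSeq promoter table of the GRCr8 assembly, all but those of Birc3 and Relb. Each sequence runs from 250 bases before to 50 bases after the annotated start of its gene. The NF-kappaB consensus was searched on both strands and was held by 5 of these 8 promoters, against 7.51% of all 33469 promoters of the same length. It was taken as GGGRNNYYCC, where R is A or G, Y is C or T and N is any base. Only exact matches counted, so near matches, such as tggaaattcc in Icam1, which departs in its first base, were left out. Sequence outside the window was not searched. The motif TATAAA, also searched on both strands, was held by 3 of the 8, against 14.2% of all promoters, and its matches overlapped no NF-kappaB match in the sequences shown. Of the genes measured, Tifa, Nfkbia and Nfkb2 held 1 NF-kappaB match each, and Tnf, Icam1 and Tnfaip2 held none in this window. The 3 with a match are shown for the match and its place, and Tnf and Icam1 because their levels rose after DSS in both genotypes. Capitals mark an NF-kappaB match in Tifa, Nfkb2 and Nfkbia, and the TATAAA match in Tnf and Icam1. Another run of capitals in Nfkbia, after the annotated start, is a TATAAA match on the other strand.
Tifa, chr2:218932636-218932935, plus strand: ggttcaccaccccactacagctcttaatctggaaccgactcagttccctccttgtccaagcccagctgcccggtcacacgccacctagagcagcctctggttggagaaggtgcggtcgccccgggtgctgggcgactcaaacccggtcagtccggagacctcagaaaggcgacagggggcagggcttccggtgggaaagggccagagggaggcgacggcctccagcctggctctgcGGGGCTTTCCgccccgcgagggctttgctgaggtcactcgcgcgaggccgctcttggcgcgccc
Nfkbia, chr6:78597023-78597322, minus strand: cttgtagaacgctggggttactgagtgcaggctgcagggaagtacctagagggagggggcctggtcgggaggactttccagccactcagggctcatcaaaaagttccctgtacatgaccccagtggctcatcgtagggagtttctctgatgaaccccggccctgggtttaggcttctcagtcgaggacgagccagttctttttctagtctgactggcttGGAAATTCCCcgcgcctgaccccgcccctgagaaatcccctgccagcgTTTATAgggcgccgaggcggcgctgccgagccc
Nfkb2, chr1:255108124-255108423, plus strand: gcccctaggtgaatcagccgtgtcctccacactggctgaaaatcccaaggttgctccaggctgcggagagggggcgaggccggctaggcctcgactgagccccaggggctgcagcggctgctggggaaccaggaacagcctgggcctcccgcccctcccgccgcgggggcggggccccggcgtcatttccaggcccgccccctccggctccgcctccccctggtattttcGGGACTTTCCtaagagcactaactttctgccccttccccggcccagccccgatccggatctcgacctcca
Tnf, chr20:3626435-3626734, plus strand: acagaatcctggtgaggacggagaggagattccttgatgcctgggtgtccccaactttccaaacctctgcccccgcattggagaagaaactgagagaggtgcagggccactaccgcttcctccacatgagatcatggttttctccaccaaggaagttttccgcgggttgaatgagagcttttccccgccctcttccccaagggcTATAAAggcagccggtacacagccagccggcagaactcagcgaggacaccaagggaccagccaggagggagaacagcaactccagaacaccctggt
Icam1, chr8:27829595-27829894, plus strand: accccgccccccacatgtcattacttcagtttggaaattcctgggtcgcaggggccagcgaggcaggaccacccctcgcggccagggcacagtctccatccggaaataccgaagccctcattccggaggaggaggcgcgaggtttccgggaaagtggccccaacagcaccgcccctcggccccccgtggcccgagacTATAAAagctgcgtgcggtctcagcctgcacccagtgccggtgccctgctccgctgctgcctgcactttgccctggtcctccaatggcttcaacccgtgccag
The match began at base -14 from the start of Tifa, at base -31 of Nfkbia and at base -20 of Nfkb2. A match is a description of letters and does not show that NF-kappaB binds there.

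Tnf, Icam1 and Tnfaip2 were higher after DSS in both genotypes, Tifa was higher after DSS in Pirc rats and not in wildtype rats, and Nfkbia, Nfkb2 and Birc3 showed no difference between DSS-treated and untreated rats that passed the test. Apart from Tifa, 3 of the 6 measured members rose after DSS over both genotypes, against 10.2% of all probes, and none fell, against 6.99% of all probes. The same 3, Tnf, Icam1 and Tnfaip2, passed within Pirc rats (background 8.14%) and within wildtype rats (background 2.94%). Apart from Tnf and Tifa, 2 of the 5 members were higher in Pirc rats over both treatments, Icam1 and Nfkb2, against 9.26% of all probes, and none lower, against 8.27%. Among DSS-treated rats 3 of these 5 were higher in Pirc rats, Icam1, Nfkbia and Tnfaip2 (background 9.47%), and none of the 3 passed when only the compared groups were fitted. Among untreated rats none of the 5 passed in limma (background 0%), and 1 of them, Nfkb2, had an unadjusted p below 0.05. The difference between the DSS effects passed for none of the members other than Tifa, which was chosen on it, against 0.0428% of all probes, and 1 of them, Nfkbia, had an unadjusted p below 0.05. The median difference of all 7 measured members was 0.85 for DSS over both genotypes, where that of all probes was 0.06. For Pirc over both treatments it was 0.75, where that of all probes was -0.06. The 0.85 is the value of Tifa itself, and Tnf and Tifa, chosen on these arrays, enter both medians. Nothing is therefore read from these medians.

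**Figure D1:**
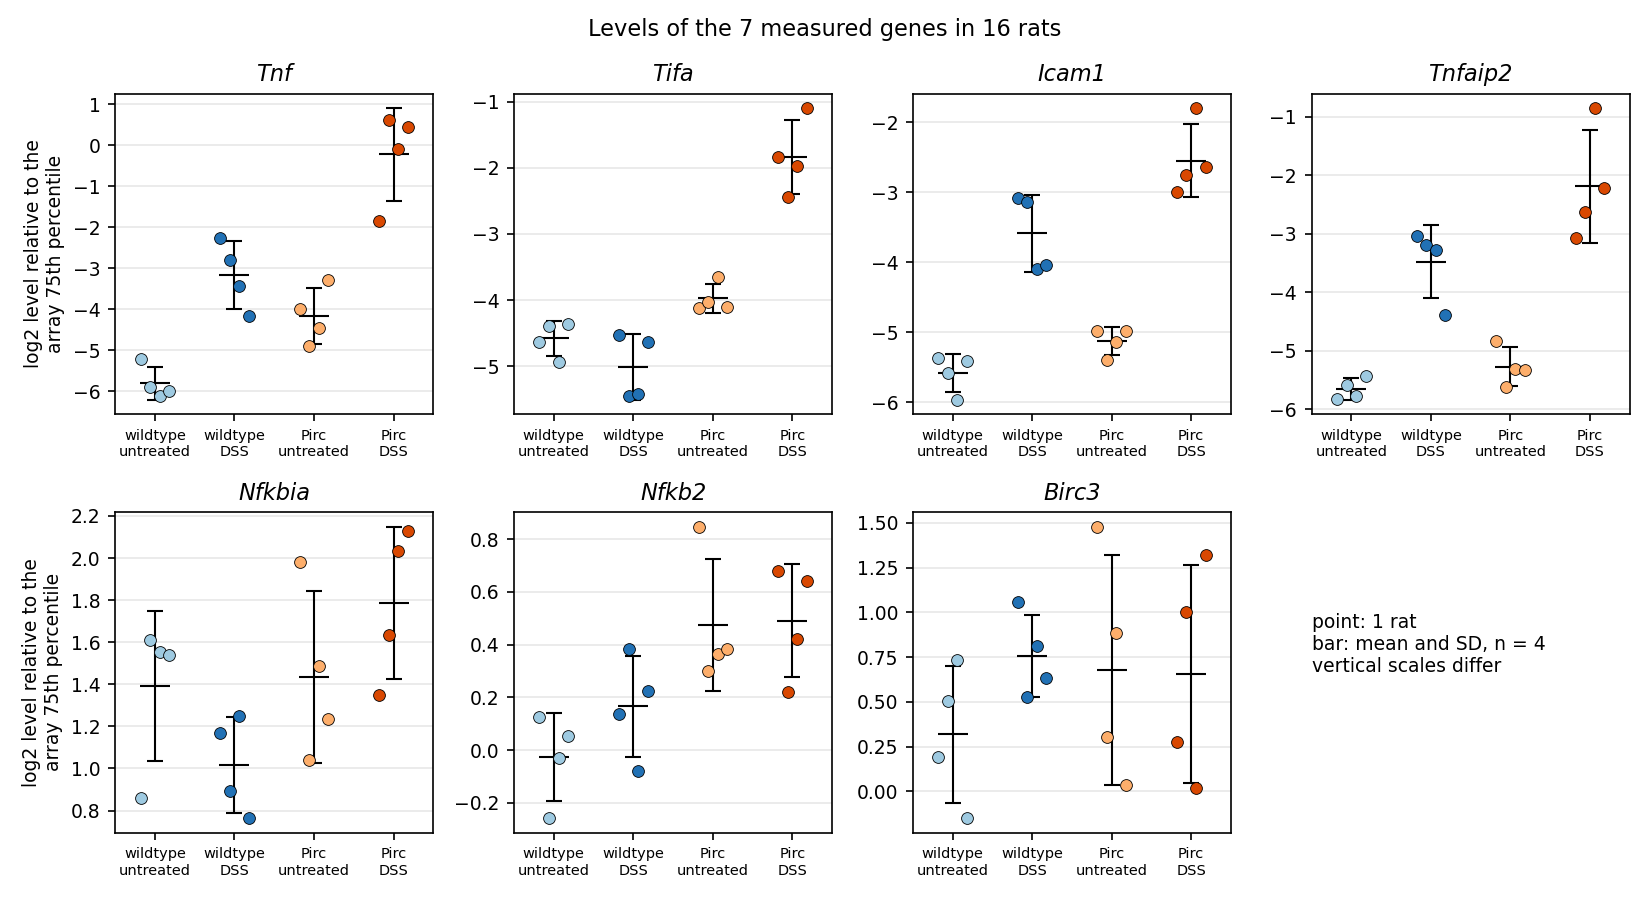
Log2 level of each measured gene relative to the array's 75th percentile (vertical axis, a separate scale for each gene) in each rat of the 4 groups (horizontal axis), with the mean and SD of each group, n = 4. All Pirc rats given DSS lie above all other rats for Tifa and Tnf, while Birc3 overlaps between all groups.

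Tnf, the cytokine, was lowest in untreated wildtype rats, at log2 levels of -5.22, -5.90, -6.11 and -6.01. In untreated Pirc rats the levels were -3.99, -4.91, -4.45 and -3.30. These 2 groups did not overlap. In DSS-treated wildtype rats the levels were -2.27, -2.81, -3.44 and -4.17, and in DSS-treated Pirc rats -1.85, 0.62, -0.11 and 0.44. The order of the group means thus ran from untreated wildtype (-5.81 ± 0.40, SD, n = 4) through untreated Pirc (-4.16 ± 0.69) and DSS-treated wildtype (-3.17 ± 0.82) to DSS-treated Pirc (-0.23 ± 1.13), and only the middle pair overlapped. After DSS Tnf rose by 3.29 (SE 0.37, adjusted p = 4.55e-05, limma) over both genotypes, a 9.76-fold change. Within Pirc rats the DSS difference was 3.94 (SE 0.52, adjusted p = 0.000275) and within wildtype rats 2.64 (SE 0.52, adjusted p = 0.0123). The difference between these DSS effects was 1.30 (95% interval -0.28 to 2.88, adjusted p = 0.555). As a description only, Tnf was higher in Pirc than in wildtype rats by 2.30 over both treatments, by 1.65 among untreated rats and by 2.95 after DSS.

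All DSS-treated wildtype rats lay above all untreated wildtype rats. Without the DSS-treated wildtype rat 14, at -2.27, the difference in wildtype rats was 2.34 (adjusted p = 0.0535). With normexp background correction (offset 50) followed by quantile normalization, called the normexp setting below, it was 1.37 (adjusted p = 0.0822). Within the slides the DSS difference over both genotypes was 3.43 on slide 1 and 3.15 on slide 2, each from 2 rats per group. The difference of Pirc from wildtype rats over both treatments was 1.52 on slide 1 and 3.08 on slide 2. The Tnf probe had 2 spots per array, whose SD was 0.73 on the array of the untreated wildtype rat 17 and at most 0.27 on the others. Its signal on the scanner's scale ran from 19.5 in rat 25, untreated wildtype, to 2300 in rat 24, DSS-treated Pirc.

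Markers of several immune cell types moved with Tnf. Of 8 measured neutrophil markers out of 9 listed, 5 rose after DSS over both genotypes and 2 were higher in Pirc rats, and their summed level, in multiples of the array's 75th percentile, was 0.741 to 1.05 in untreated wildtype, 1.44 to 2.05 in untreated Pirc, 1.45 to 4.87 in DSS-treated wildtype and 9.82 to 38.6 in DSS-treated Pirc rats. Among them S100a8, S100a9 and Ncf1 were well above background on all 16 arrays, and Mmp8, Mmp9 and Ngp on 3, 4 and 2 arrays. The neutrophil sum is mainly that of S100a9, S100a8 and Ncf1, with mean levels of 0.57, -0.29 and -0.95 over the 16 arrays. Cxcr2 was next at -5.81. Of 9 measured macrophage and monocyte markers, 6 rose after DSS and 1 was higher in Pirc rats, with summed levels of 9.89 to 12.8, 12.1 to 15.5, 13.5 to 26.1 and 19.8 to 24.9 in the same order of groups. Cd14, with a mean level of 3.43 over the 16 arrays, weighs most in this sum, and Lyz2 was next at 1.28. All 4 measured B and plasma cell markers out of 7 listed rose after DSS over both genotypes, and 1 of 8 T cell markers did. Beside these and later marker counts, 10.2% of all probes rose after DSS over both genotypes and 9.26% were higher in Pirc rats over both treatments. The 1 of 9 macrophage markers higher in Pirc rats and the 1 of 8 T cell markers lie near these shares. The DSS-treated Pirc rat with the least Tnf, rat 12, had the lowest neutrophil sum of its group. It also had the highest B and plasma cell sum (0.373) and T cell sum (1.41) of its group. The DSS-treated wildtype rat with the least Tnf, rat 26, had the lowest neutrophil sum (1.45) and macrophage sum (13.5) of its group, and rat 14, with the most Tnf, the highest macrophage sum (26.1). The highest neutrophil sum of that group (4.87) was in rat 22, where Tnf was -3.44, and that of rat 14 was 4.58. Rat 26 stood apart in other lists as well, with a smooth muscle sum of 11.6 against 0.923 to 1.40 in the rest of its group, the highest B and plasma cell sum of its group (0.316) and a urothelial and stratified epithelial sum of 4.38, within the range of untreated wildtype rats. The part of these cells in the Tnf difference was not tested.

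Tifa, the adaptor, was high in a single group. Its levels in DSS-treated Pirc rats were -1.83, -2.44, -1.97 and -1.10. In untreated Pirc rats they were -4.11, -4.02, -3.64 and -4.10. In wildtype rats they were -4.63, -4.40, -4.93 and -4.36 without DSS and -4.53, -5.45, -5.42 and -4.64 with DSS. The lowest DSS-treated Pirc rat thus lay above the highest rat of every other group, untreated Pirc rats lay just above all wildtype rats, and the wildtype groups overlapped. The order of the means was DSS-treated wildtype (-5.01 ± 0.49, SD, n = 4), untreated wildtype (-4.58 ± 0.26), untreated Pirc (-3.97 ± 0.22) and DSS-treated Pirc (-1.83 ± 0.55). As a description only, the DSS difference was 2.14 in Pirc rats and -0.43 in wildtype rats, which is a difference between the DSS effects of 2.57. The difference between the DSS effects was 2.41 on slide 1 and 2.73 on slide 2. Pirc rats had more Tifa than wildtype rats by 3.17 after DSS and by 0.61 without it. The averages, 0.85 for DSS over both genotypes and 1.89 for Pirc over both treatments, come from the same values and carry no test. The neutrophil marker sums given above were likewise highest in DSS-treated Pirc rats, and their part in the Tifa values was not tested. In the DSS-treated Pirc rats 12, 16, 20 and 24, with Tifa at -1.83, -2.44, -1.97 and -1.10, these sums were 9.82, 38.6, 34.1 and 16.9.

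**Figure D2:**
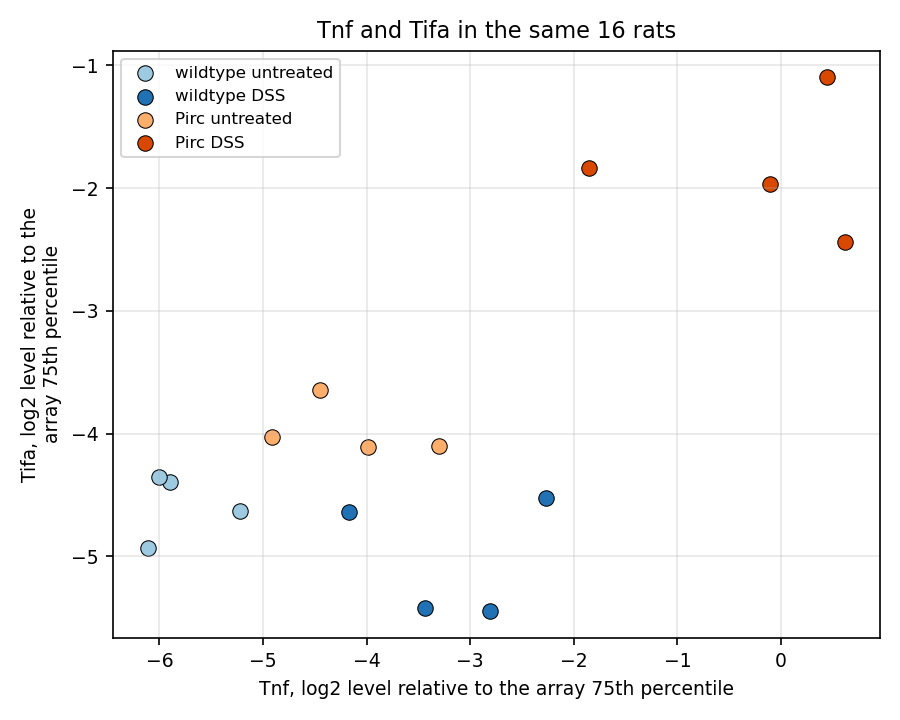
Tifa level (vertical axis) against Tnf level (horizontal axis), both as log2 relative to the array's 75th percentile, with 1 point per rat, coloured by group. DSS-treated wildtype rats lie to the right of untreated wildtype rats (more Tnf) and no higher (Tifa between -5.45 and -4.53), and the DSS-treated Pirc rats lie apart on both axes.

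Tnf and Tifa did not follow each other from rat to rat within groups. Over the 16 arrays their Pearson r was 0.73, and it was -0.05 for the deviations of each rat from its group mean, as the plot of Tnf against Tifa shows. These correlations describe 16 rats in 4 groups and carry no test. By the same measure Icam1 and Tnfaip2 were closest among the members, with r of 0.98 over all arrays and 0.78 within groups. Tnf had r of 0.92 with Icam1 and 0.90 with Tnfaip2, or 0.59 and 0.48 within groups.

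Icam1, the intercellular adhesion molecule by which leukocytes attach to endothelium and epithelium, rose after DSS in both genotypes. Its levels were -5.37, -5.58, -5.96 and -5.41 in untreated wildtype and -3.08, -3.14, -4.10 and -4.03 in DSS-treated wildtype rats. In Pirc rats they were -4.98, -5.40, -5.14 and -4.98 without DSS and -3.00, -2.75, -1.80 and -2.64 with DSS. All 8 DSS-treated rats lay above all 8 untreated rats, and the untreated groups overlapped at their edges. The DSS difference was 2.29 over both genotypes (SE 0.20, adjusted p = 1.28e-05, limma), a 4.88-fold change, with 2.58 in Pirc rats (adjusted p = 0.000105) and 1.99 in wildtype rats (adjusted p = 0.0025). The difference between the DSS effects was 0.59 (95% interval -0.26 to 1.43, adjusted p = 0.623). With the normexp setting the DSS difference over both genotypes was 1.19. This probe had 10 spots on each array, with a median spot SD of 0.12 against an SD between rats of a group of 0.42.

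Tnfaip2, a gene first found as induced by tumor necrosis factor in endothelial cells, changed much as Icam1 did. Its levels were -5.82, -5.58, -5.78 and -5.42 in untreated wildtype and -3.05, -3.19, -3.28 and -4.39 in DSS-treated wildtype rats. In Pirc rats they were -4.83, -5.61, -5.30 and -5.33 without DSS and -3.08, -2.62, -0.85 and -2.21 with DSS. Again all DSS-treated rats lay above all untreated rats. The DSS difference was 2.63 over both genotypes (SE 0.28, adjusted p = 3.37e-05, limma), a 6.18-fold change. With the normexp setting it was 1.43. Under the main scaling it was 3.08 in Pirc rats (adjusted p = 0.000225) and 2.18 in wildtype rats (adjusted p = 0.00846). The value in wildtype rats was 0.98 with the normexp setting (adjusted p = 0.102). The difference between the DSS effects was 0.90 (95% interval -0.29 to 2.10, adjusted p = 0.592).

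Fibroblast and endothelial markers moved with these genes as well. All 6 fibroblast markers rose after DSS over both genotypes and none differed between genotypes, with summed levels of 1.36 to 1.85 in untreated wildtype, 1.52 to 2.65 in untreated Pirc, 2.55 to 14.3 in DSS-treated wildtype and 5.44 to 14.6 in DSS-treated Pirc rats. Of 7 measured endothelial markers out of 8 listed, 5 rose after DSS over both genotypes and none differed between genotypes, where 2 of the 7, Tek and Tie1, were well above background on 0 and 2 arrays. Their summed level was 0.395 to 0.584 in untreated wildtype, 0.313 to 0.599 in untreated Pirc, 0.551 to 0.949 in DSS-treated wildtype and 0.816 to 1.11 in DSS-treated Pirc rats. Markers of urothelium and stratified epithelium, which a normal colon lacks, had summed levels of 4.26 to 4.60 and 3.36 to 4.30 in the untreated groups, and of 4.38 to 37.6 in DSS-treated wildtype and 15.9 to 72.8 in DSS-treated Pirc rats. A Tp63 probe with a mean level of 1.92 over the 16 arrays weighs most in the untreated sums, where Krt14, the next highest gene, had a mean of -1.65. The other Tp63 probe had a mean of -6.10 and was well above background on 6 arrays. Of 9 such markers measured, 7 rose after DSS over both genotypes, and Upk2 was well above background on 0 arrays. Rat 20, with the highest Icam1 (-1.80) and Tnfaip2 (-0.85), also had the highest urothelial and stratified epithelial sum (72.8). Its fibroblast sum (5.44) was the lowest of its group, and its endothelial sum (0.952) lay inside the range of its group. The part of any of these cell types in the Icam1 and Tnfaip2 differences was not tested.

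Colon epithelium markers differed between genotypes after DSS. Of the 9 measured, 5 were lower in Pirc rats after DSS and none higher. Of all 30367 probes 5537 passed in either direction, 2877 of them higher in Pirc rats. The median difference of the 9 markers was -0.56, against -0.11 over all probes. Over both treatments 4 were lower, against 8.27% of all probes, and none higher. Among untreated rats none passed, with a median of -0.10 against -0.02 over all probes. The summed level of the 9 markers was 455 to 651 in DSS-treated Pirc and 591 to 748 in DSS-treated wildtype rats, so these groups overlapped. The part of these markers in the differences between genotypes was not tested.

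After DSS, Icam1 and Tnfaip2 were higher in Pirc than in wildtype rats, by 1.04 (SE 0.28, adjusted p = 0.0197, limma) and 1.28 (SE 0.40, adjusted p = 0.0363). The groups did not overlap for Icam1 and overlapped for Tnfaip2. Both differences came mainly from slide 2, where they were 1.85 and 2.30, and they were 0.23 and 0.26 on slide 1. Without Pirc rat 20 they were 0.79 (adjusted p = 0.0659) and 0.84 (adjusted p = 0.0985), and without wildtype rat 26 they were 0.89 (adjusted p = 0.0518) and 0.98 (adjusted p = 0.0979). The call was also lost without wildtype rat 22 for both genes, and without rat 18 or rat 24 for Tnfaip2, with adjusted p from 0.0515 to 0.0619. Neither passed when only the compared groups were fitted (adjusted p = 0.0981 and 0.145). Over both treatments Icam1 was higher in Pirc rats by 0.75 (SE 0.20, adjusted p = 0.0185), or 0.44 with the normexp setting. The 0.83 of Tnfaip2 did not pass (SE 0.28, adjusted p = 0.0534), but it did with dim probes filtered out (adjusted p = 0.0331), without rat 12 (adjusted p = 0.027) and without rat 16 (adjusted p = 0.0416). Among untreated rats the differences were 0.45 (adjusted p = 0.614) and 0.38 (adjusted p = 0.815).

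**Figure D3:**
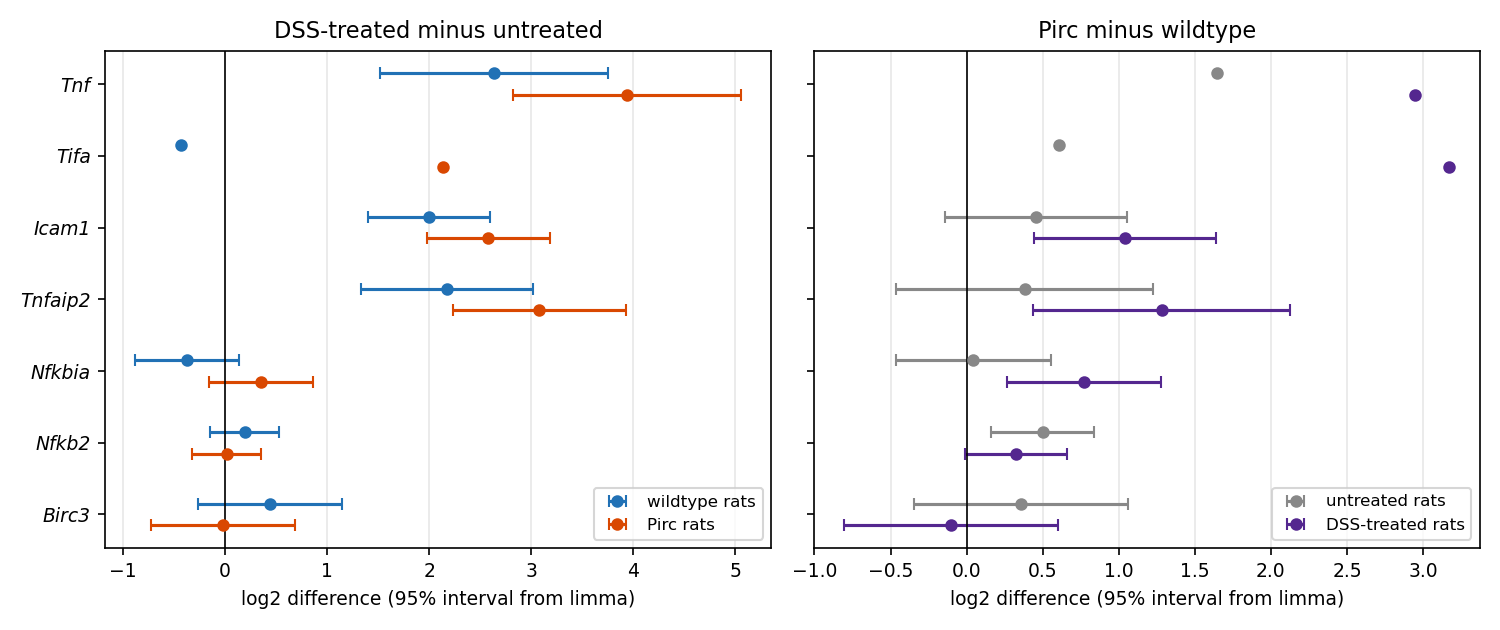
Log2 differences with 95% intervals from limma for the 7 measured genes: on the left DSS-treated minus untreated in wildtype and in Pirc rats, on the right Pirc minus wildtype in untreated and in DSS-treated rats. Tnf, Icam1 and Tnfaip2 lie to the right of 0 in both genotypes after DSS, and Tifa does so in Pirc rats (2.14) but not in wildtype rats (-0.43), and no interval is drawn for the Tifa values of both panels and the Tnf values of the right panel, on which these genes were chosen.

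Nfkbia, which encodes the IkB protein that returns NF-kappaB to the cytoplasm, did not rise with Tnf after DSS. Its levels were 0.86, 1.61, 1.55 and 1.54 in untreated wildtype and 1.17, 0.89, 1.25 and 0.76 in DSS-treated wildtype rats. In Pirc rats they were 1.98, 1.04, 1.49 and 1.23 without DSS and 1.35, 1.64, 2.03 and 2.13 with DSS. The DSS-treated Pirc rats lay above the DSS-treated wildtype rats, and every other pair of groups overlapped. The DSS difference was -0.01 over both genotypes (95% interval -0.37 to 0.35, adjusted p = 0.979, limma), made of 0.35 in Pirc rats and -0.37 in wildtype rats, neither of which passed. The difference between these DSS effects was 0.72 (95% interval 0.01 to 1.44, adjusted p = 0.467). After DSS Nfkbia was higher in Pirc than in wildtype rats by 0.77 (SE 0.24, adjusted p = 0.0364). This call was lost when only the compared groups were fitted (adjusted p = 0.0653) and without any of the rats 14, 18, 20, 24 or 26, with differences from 0.65 to 0.82. Over both treatments its difference between genotypes was 0.41 (adjusted p = 0.112).

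Nfkb2 encodes the p100 precursor of the p52 subunit of the noncanonical branch, and is itself a target of the pathway. Its levels were 0.13, -0.26, -0.03 and 0.05 in untreated wildtype and 0.14, 0.38, -0.08 and 0.22 in DSS-treated wildtype rats. In Pirc rats they were 0.85, 0.30, 0.36 and 0.38 without DSS and 0.68, 0.22, 0.42 and 0.64 with DSS. Nfkb2 was higher in Pirc rats over both treatments by 0.41 (SE 0.11, adjusted p = 0.0206, limma), a 1.33-fold change, with 0.42 on slide 1 and 0.41 on slide 2. Untreated Pirc rats lay above all untreated wildtype rats, although that difference (0.50, adjusted p = 0.308) did not pass. The DSS difference was 0.10 over both genotypes (95% interval -0.13 to 0.34, adjusted p = 0.627).

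Birc3, a ubiquitin ligase that acts beside the TNF receptor and restrains cell death, differed in none of the 7 comparisons. Its levels ran from -0.15 to 0.73 in untreated wildtype, 0.53 to 1.06 in DSS-treated wildtype, 0.04 to 1.48 in untreated Pirc and 0.02 to 1.32 in DSS-treated Pirc rats. All pairs of groups overlapped. The DSS difference was 0.21 over both genotypes (95% interval -0.29 to 0.71, adjusted p = 0.645, limma), an interval that leaves room for a change of up to 0.71. The spots of the Birc3 probe had a median SD of 0.05, while rats within a group had an SD of 0.50.

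The 3 genes with an NF-kappaB match in the promoter sequences above, Tifa, Nfkbia and Nfkb2, thus had DSS differences over both genotypes of 0.85, -0.01 and 0.10. Those measured without an exact match in that window, Tnf, Icam1 and Tnfaip2, had 3.29, 2.29 and 2.63. With so few genes this is a listing and not a comparison.

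The other genes of the pathway were taken from lists chosen with earlier results of these data known. Of 64 listed genes 47 were measured. After DSS over both genotypes 15 of the 47 rose, against 10.2% of all probes, and 3 fell, against 6.99%, with a median difference of 0.12 against 0.06 over all probes. Within Pirc rats 11 of the 47 rose, against 8.14% of all probes, and within wildtype rats 5 did, against 2.94%. Between genotypes over both treatments 7 were higher in Pirc rats, against 9.26% of all probes, and 7 lower, against 8.27%, with a median of -0.04 against -0.06. None of the 47 passed for the difference between the DSS effects in limma. These counts depended on the processing. For DSS in wildtype rats, 1 gene passed in either direction without rat 14, 2 when only the compared groups were fitted, and 9 with dim probes filtered out. With a minimum factor of 2, 8 in place of 18 passed for DSS over both genotypes, and 4 in place of 14 for Pirc over both treatments.

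Ligands and receptors of the TNF family had 9 of 12 listed genes measured, of which 4 rose after DSS. Tnfrsf1b, the second TNF receptor, rose by 2.75 (adjusted p = 2.56e-05, limma). Its levels ran from -4.37 to -3.19 in untreated wildtype, -3.69 to -3.09 in untreated Pirc, -3.05 to -0.98 in DSS-treated wildtype and -0.62 to 0.73 in DSS-treated Pirc rats, so that DSS-treated rats of each genotype lay above the untreated ones. Cd40, a receptor of antigen-presenting cells that feeds the noncanonical branch, rose by 1.25 (adjusted p = 8.42e-05). A second probe of Cd40 gave 1.43 (adjusted p = 0.000355), and the normexp setting 0.44. The ligand Ltb rose by 1.21 (adjusted p = 0.000697), and Tnfrsf1a, the main TNF receptor of most cells, by 0.45 (adjusted p = 0.0283), a call lost in 7 of the 16 fits that left out 1 rat. In Pirc rats over both treatments Tnfrsf1b was higher by 1.24 (adjusted p = 0.00832) and Cd40 by 0.67 (adjusted p = 0.00894), or 0.31 with the normexp setting, and no gene of this list was lower.

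Adaptors and kinases next to the receptors had 11 of 17 listed genes measured, and most moved little. After DSS the kinase gene Map3k7 rose by 0.36 (adjusted p = 0.0222, limma), Birc2, the paralog of Birc3, fell by 0.29 (adjusted p = 0.018) and Tab1, a partner of the Map3k7 kinase, fell by 0.35 (adjusted p = 0.0317). Of these calls that of Map3k7 was lost without rat 15, 17 or 18, and that of Tab1 in 8 of the 16 fits that left out 1 rat. The other probe of Tab1 moved less. Its means were -3.41 untreated and -3.52 after DSS in Pirc rats, and -3.20 and -3.19 in wildtype rats. In Pirc rats 3 genes of the list were lower and none higher. Rnf31, the catalytic subunit of the ligase that builds linear ubiquitin chains, was lower by 0.68 on the log2 scale, with a difference of -0.68 (adjusted p = 0.00488). Its partner Sharpin differed by -0.28 (adjusted p = 0.0225), with all Pirc rats below all wildtype rats (adjusted p = 0.0505 without rat 17), and the third subunit gene, Rbck1, named here after its value was seen, by -0.15 (adjusted p = 0.305). The receptor adaptor Tradd differed by -0.38 with the probe that stands for it (adjusted p = 0.0176) and by -0.51 with its other probe (adjusted p = 0.00579). All 3 genes of the IKK complex were measured and none passed in either comparison.

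IkB proteins and other subunits had 4 of 7 genes measured. After DSS 2 of them rose, Bcl3, a nuclear IkB protein that works with p50 and p52, by 0.65 (adjusted p = 0.0179, limma) and the inhibitor gene Nfkbie by 0.54 (adjusted p = 0.0187), or 0.33 with the normexp setting. Bcl3 was also higher in Pirc rats, by 0.91 (adjusted p = 0.00397). Among deubiquitinases and other negative regulators 7 of 11 were measured. Zc3h12a, an RNase that destroys transcripts of inflammatory cytokines, rose after DSS by 1.25 (adjusted p = 0.00142) and was higher in Pirc rats by 1.81 (adjusted p = 0.000554). Its levels ran from -4.41 to -3.48 in untreated wildtype, -2.60 to -1.97 in untreated Pirc, -3.59 to -1.90 in DSS-treated wildtype and -1.11 to -0.30 in DSS-treated Pirc rats, so the Pirc rats lay above the wildtype rats within each treatment. Tax1bp1, an adaptor of the Tnfaip3 enzyme, fell after DSS by 0.37 (adjusted p = 0.0327). In Pirc rats Tnip1, another partner of that enzyme, differed by -0.59 (adjusted p = 0.0169) and the ubiquitin ligase gene Itch by -0.37 (adjusted p = 0.0359). The calls of Tax1bp1 and Itch were lost in 10 and 11 of the 16 fits that left out 1 rat.

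Survival genes and other targets were all measured, 9 of 9, and 5 rose after DSS. Bcl2a1, a relative of Bcl2 that is strongly expressed in granulocytes, rose by 3.38 (adjusted p = 7.18e-06, limma), but its probe was well above background on none of the 4 untreated wildtype arrays and on 2 of the 4 untreated Pirc arrays. It rose by 1.14 with the normexp setting and by 2.21 with dim signals set to a common floor. Set against the lowest signal well above background on each array, its level in DSS-treated wildtype rats was at least 7.90-fold that of untreated wildtype rats. Vcam1, an adhesion molecule of activated endothelium, rose by 3.12 (adjusted p = 0.000478), and was well above background on 2 of 4 arrays in each untreated group. With the normexp setting it rose by 1.02. Cflar, which blocks caspase 8, rose by 1.20 (adjusted p = 0.000641), and Bcl2l1, an inhibitor of mitochondrial cell death, by 0.52 (adjusted p = 0.00719). The other probe of Cflar gave 0.46 (adjusted p = 0.0266), and the 3 other probes of Bcl2l1 gave 0.52, 0.53 and 0.24, of which the first passed. In Pirc rats Bcl2a1 and Cflar were higher by 1.07 (adjusted p = 0.0138) and 0.76 (adjusted p = 0.0161), of which Bcl2a1 did not pass with the common floor (0.72, adjusted p = 0.0832) and was 0.45 with the normexp setting, and the other Cflar probe gave 0.17 (adjusted p = 0.385), while Xiap, a caspase inhibitor, and Bcl2l1 differed by -0.57 (adjusted p = 0.00885) and -0.48 (adjusted p = 0.014). The other probe of Xiap also lay lower in Pirc rats, but by less. Its means were -3.97 in Pirc and -3.89 in wildtype rats without DSS, and -3.81 and -3.26 with DSS. The 3 other probes of Bcl2l1 differed in how much lower they lay in Pirc rats. The brightest had means of 1.89 in Pirc and 2.23 in wildtype rats without DSS, and 2.29 and 2.86 with DSS. The middle one had -4.32 and -4.23 without DSS, and -3.99 and -3.51 with DSS. The dimmest had -5.56 and -5.57 without DSS, and -5.41 and -5.24 with DSS. In the death branch 4 of 5 genes were measured. Ripk3, the kinase of necroptosis, rose after DSS by 1.67 (adjusted p = 0.000131) and was higher in Pirc rats by 1.19 (adjusted p = 0.0033), and Casp8 rose after DSS by 0.65 (adjusted p = 0.000503), with all DSS-treated rats above all untreated rats. The neutrophil and macrophage marker sums above were higher after DSS in both genotypes. After DSS the neutrophil sums were also higher in Pirc than in wildtype rats, as were the means of Ripk3, Bcl2a1 and Cflar. The means in DSS-treated wildtype and Pirc rats were 3.20 and 2.63 for Bcl2l1, -3.80 and -3.81 for Vcam1, and -1.99 and -1.91 for Casp8. The part of these cells was not tested.

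**Figure D4:**
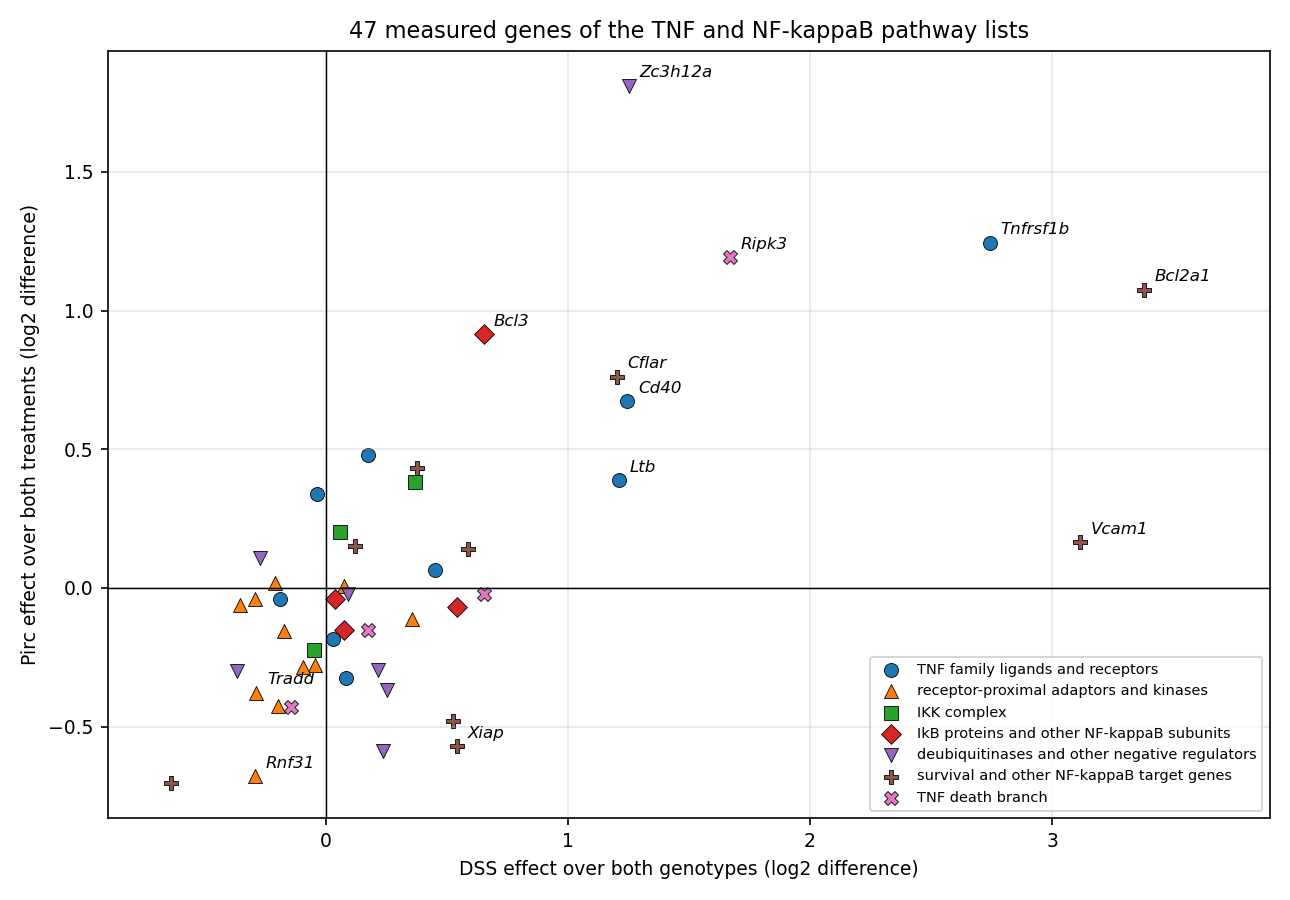
DSS effect over both genotypes (horizontal axis) against the Pirc effect over both treatments (vertical axis), both as log2 differences, for the 47 measured genes of the pathway lists, with 1 point per gene and a symbol per list. Most genes lie near 0 on both axes, and Tnfrsf1b (2.75 and 1.24), Zc3h12a (1.25 and 1.81), Ripk3 (1.67 and 1.19) and Bcl2a1 (3.38 and 1.07) lie up and to the right.

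The genes with patterns most like those of Tnf and Tifa were different sets. Likeness was the Pearson r of log2 level over the 16 arrays, among 12154 gene-named probes well above background on all of them, and it is a description that group differences and shared cell content both enter. For Tnf the closest were S100a9 (r = 0.97), a subunit of calprotectin, the tissue plasminogen activator gene Plat (0.96), Gbp2 (0.96), Mmp7 (0.96) and Aif1 (0.96), of which S100a9 and Aif1 are in the neutrophil and macrophage marker lists. Within groups their r with Tnf ran from 0.67 to 0.76. For Tifa the closest were the defensin gene Defa9 (r = 0.95), the keratin gene Krt36 (0.95), the defensin gene RatNP-3b (0.94), Cd276 (0.93) and Unc5cl (0.93). Within groups their r with Tifa ran from 0.35 to 0.69, so that more of their likeness lay in the group means.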

How the data were processed

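Total RNA of 16 rat colon samples was labelled with Cy3 and hybridised to 1-colour Agilent arrays. Per the file headers and labels, the deposited intensity values are the processed signals of Feature Extraction, with background subtracted, and were not normalized between arrays. Control spots were left out, outlier-flagged spots were left out unless all spots of a probe were flagged, and log2 signals were averaged over the spots of a probe and set relative to the array's 75th percentile, which lay between 875 and 2194. A probe counted as well above background on an array where at least 0.5 of its spots had that flag, and 71.1% to 80.3% of spots did. The number of arrays limits the precision.

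Accessions gave symbols to 18006 of 30367 probes through RefSeq, and 12361 stayed unnamed. The probe with the highest mean level stood for a gene with several probes. Group means of all 16 arrays were fitted by lmFit, moderated by eBayes (limma 3.58.1 under R 4.3.3) and adjusted by Benjamini-Hochberg over all probes, where p-values measure the spread between rats. In place of the study's paired analysis of variance, which these unpaired rats do not allow, 7 comparisons were made. The effect of DSS was taken in each genotype and averaged over both, the effect of Pirc in each treatment and averaged over both, and the DSS effect of wildtype rats was subtracted from that of Pirc rats. The fit was tested on simulated data. The members and gene lists were chosen with earlier results of these data known. Up to 4 genes per pathway list and comparison were named, those with the smallest adjusted p among those that passed, and the 5 probes most like Tnf and Tifa. Alternatives were other background corrections, scalings, spot and probe filters, slide or array row as a block, no moderation, only the compared groups, a minimum factor of 2, and leaving out each rat.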

Additional observations from a re-analysis of the deposited data

Results flagged for a closer look

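Levels of the 7 measured members were checked for a rat far from the other 3 of its group in 28 groups, and 3 were found where chance gives about 1 in 20 groups, or 1.4. Nfkb2 was 0.85 in the untreated Pirc rat 11, with 0.30 to 0.38 in the others of that group. Nfkbia was 0.86 in the untreated wildtype rat 13, with 1.54 to 1.61 in the others. Tnfaip2 was -4.39 in the DSS-treated wildtype rat 26, with -3.28 to -3.05 in the others. Without rat 26 the DSS difference of Tnfaip2 in wildtype rats was 2.48 in place of 2.18.

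For Tifa the DSS effects of the genotypes differed by 2.57, 2.14 for Pirc rats against -0.43 for wildtype rats. It was selected on this value, so it has no independent test here.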

How the results depend on the processing

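After DSS 4 members rose in Pirc rats under every alternative tried, and 4 over both genotypes except with a minimum factor of 2, which left 3. These counts include Tnf and Tifa. Blocking on slide or array row, median scaling, quantile normalization, a common floor and keeping flagged spots changed no count of members that passed. For DSS in wildtype rats the count was 1 in place of 3 with the normexp setting, and ranged from 2 to 3 when each rat was left out, with 2 without rat 14. For Pirc over both treatments it was 2 in place of 4 with a minimum factor of 2, which Tnf and Tifa meet, and 4 to 5 without each rat. For Pirc after DSS it was 2 in place of 5 when only the compared groups were fitted, where the calls of Icam1, Nfkbia and Tnfaip2 were lost (adjusted p = 0.0981, 0.0653 and 0.145), and 2 to 5 without each rat, with 2 without rat 20 or 26. For the difference between the DSS effects it was 0 in place of 1 without moderation (Tifa), and 0 to 1 without each rat, with 0 without rat 11, 13, 15, 17, 18, 23 or 25. For Pirc among untreated rats it was 0 throughout. The cause of these changes was not tested, beyond the smaller samples that leaving out rats or groups makes.

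Differences near 0 changed sign when rats were left out. For Birc3 the DSS effect in Pirc rats ranged from -0.24 to 0.25, the Pirc effect after DSS from -0.32 to 0.11 and the Pirc effect over both treatments from -0.0064 to 0.23. For Nfkb2 the DSS effect in Pirc rats ranged from -0.0464 to 0.14. For Nfkbia the DSS effect over both genotypes ranged from -0.0994 to 0.0802 and the Pirc effect in untreated rats from -0.14 to 0.18.

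Counts over all probes moved as well. Fitting only the compared groups gave 2523 in place of 4451 for DSS in Pirc rats, 524 in place of 1165 for DSS in wildtype rats, 2127 in place of 5537 for Pirc after DSS and 3 in place of 0 for Pirc among untreated rats. Leaving out each rat gave 2776 to 5281, 422 to 1801, 3131 to 6805 and 0 to 4 in these comparisons. For the difference between the DSS effects 13 probes passed, 41 with the normexp setting, 32 with a common floor and 8 to 63 without each rat, and of the pathway genes 0 passed, or 1 without rat 12. A common floor gave 7 and no moderation 3 probes for Pirc among untreated rats. Quantile normalization moved the median of all probes for DSS over both genotypes from 0.06 to -0.09. No paired analysis was possible because the rat numbers differ between all groups. The members had 1 probe each, so another probe could not be tried for them. The normexp setting, which changed background correction and normalization together, lowered the DSS difference over both genotypes of Tnf from 3.29 to 2.27, of Icam1 from 2.29 to 1.19, of Tnfaip2 from 2.63 to 1.43 and of Tifa from 0.85 to 0.61, and that of Icam1 in wildtype rats from 1.99 to 0.90.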
